A study of Mus musculus with 122 samples.

Results

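Chromatin boundaries that appeared in mouse embryonic stem cells when CTCF was degraded are described here, with the genes, binding sites and RNA found around them. They were chosen by the Hi-C domain lists of untreated and CTCF-depleted cells. A boundary was the middle of a gap of up to 40 kb between neighbouring domains, or both edges of a wider gap. A new boundary was one in the depleted CTCF line (CTCF I) that had a boundary within 40 kb in the depleted CTCFL line (CTCFL I) and none within 80 kb in untreated cells of either line (CTCF U, CTCFL U). This rule gave 382 new boundaries, or 15.2% of the 2518 boundaries of CTCF I. They were set beside 1340 kept boundaries, which were found within 40 kb in all 4 of these lists (40 of them are chromosome ends), and 750 lost boundaries, which were found in both untreated lists and had no boundary within 80 kb in either depleted list.

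The study measured Hi-C, FLAG and RAD21 ChIP-seq and RNA-seq in E14Tg2a cells, a male mouse embryonic stem cell line. By its methods the cells grew without feeders in serum with leukemia inhibitory factor, CHIR99021 and a MEK inhibitor. In every line both alleles of Ctcf carried an auxin-inducible degron (AID) and eGFP, and the plant F-box protein Tir1 was expressed from Rosa26, so that the auxin indole-3-acetic acid (IAA) led to degradation of the endogenous CTCF protein. Each line also carried, at Tigre, a doxycycline-inducible transgene with FLAG and mRuby2 tags that encoded CTCF, its germline paralog CTCFL, or 1 of 2 chimeras. The CLC chimera had the zinc fingers of CTCFL between the N and C termini of CTCF, and LCL had the zinc fingers of CTCF between those of CTCFL. Cells were left untreated (U), treated with 500 µM IAA (I), with 1 µg/ml doxycycline (D), or with both (ID). D cells thus had endogenous CTCF together with the transgene product, and ID cells had the transgene product alone. The labels give 24 h of treatment, whereas by the treatment protocol the cells for Hi-C were treated for 4 days and those for the other assays for 2 days. The lines were grown from single picked colonies, so that clone and transgene cannot be told apart. RNA libraries of the CLC and LCL lines carry the mark 2i in their column names, and those of the CTCF and CTCFL lines do not. What this mark stands for is not stated, and it cannot be told apart from the line. No IAA-treated cells without the degron were analysed here, so that IAA and the loss of CTCF cannot be told apart either.

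CTCF is a zinc finger protein that stops cohesin as it extrudes chromatin loops, and it marks many of the borders between the self-interacting regions called topologically associating domains. Cohesin is a ring of SMC proteins closed by RAD21. Borders are also found at active promoters and where active and inactive chromatin meet, and not all of these need CTCF. CTCFL, also called BORIS, shares most of its zinc finger sequence with CTCF but not its termini.

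Sequences under 4 of the strongest FLAG ChIP-seq sites near new boundaries are shown first, because they hold the DNA that CTCF or CTCFL bound beside these borders. Each is 120 bases around a summit on the plus strand of GRCm38 (mm10). Capitals mark matches, on either strand, to the CTCF core letters CCA, any 2 bases, AG, any 2 bases, GGC. The site at chr10:77021476-77021595 was the strongest CTCF ID site (-log10 q 145) of those printed, lay in an exon of the predicted genes Gm10787 and Gm3137, and was 38.5 kb from a boundary inside the overlapping genes Slc19a1 and Col18a1. It held 1 match on the minus strand. The site at chr2:173097475-173097594 had the highest CTCFL D value near a new boundary (-log10 q 98.3) and lay in an intron of Ctcfl itself, 37.6 kb from its boundary. Those at chr1:57970138-57970257 (CTCFL D -log10 q 78.4) and chr12:8326867-8326986 (77.0) lay within Kctd18 and Hs1bp3, outside annotated exons. None of the 3 CTCFL D windows held an exact match to these letters. Neither did the windows of the other 2 of the 3 strongest CTCF ID sites near new boundaries (-log10 q 155 and 141), which are not printed. Stretches of the Ctcfl window differed from the letters only at the A of CCA. The paper reports that sites bound by CTCFL alone depend less on an A within the motif, so that these letters may miss CTCFL sites.
CTCF ID site by Slc19a1: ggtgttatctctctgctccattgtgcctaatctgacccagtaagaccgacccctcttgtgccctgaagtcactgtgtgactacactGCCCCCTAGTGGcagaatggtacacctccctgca
CTCFL D site in Ctcfl: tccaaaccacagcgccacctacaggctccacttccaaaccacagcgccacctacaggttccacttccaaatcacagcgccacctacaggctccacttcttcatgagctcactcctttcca
CTCFL D site in Kctd18: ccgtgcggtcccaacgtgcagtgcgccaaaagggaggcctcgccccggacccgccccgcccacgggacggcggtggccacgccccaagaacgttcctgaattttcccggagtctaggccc
CTCFL D site in Hs1bp3: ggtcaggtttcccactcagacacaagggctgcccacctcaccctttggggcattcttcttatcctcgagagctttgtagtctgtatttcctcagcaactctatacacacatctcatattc

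Over all FLAG sites, the core letters were found in 300 bases around the summit of 49.2% of the 555 CTCF ID sites within 40 kb of a new boundary, against 46.9% of all 30317 CTCF ID sites. For CTCFL D, searched with the same CTCF letters, the shares were 33.3% of 489 sites and 32.9% of all 22294. The middles of 40 kb bins held the letters in 1.66% of 63974 windows of the same length. Sites near new boundaries thus held the core letters about as often as sites elsewhere.

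Depletion left fewer boundaries, and new ones were a minority of those that remained. The list of CTCF U held 3065 boundaries and that of CTCF I 2518, and the median domain grew from 600 kb to 640 kb. The CTCFL line had 2976 and 2580. Of the CTCF I boundaries, 543 had no untreated boundary within 80 kb, and 70.3% of these had a counterpart in CTCFL I, 277 in the same 40 kb bin and 105 in the next one. Seen from the CTCFL line, 376 of 615 such boundaries (61.1%) had a counterpart in CTCF I. Each condition had 1 domain list, so these counts have no replicate error, and the percentages below carry 95% Wilson intervals that cover counting error only. The intervals treat boundaries as independent, which they are not replicates to show. Whether intervals overlap is given below as a description and not as a test.

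In the 8 domain lists that the rule did not use, the new boundaries were found mainly in cells without CTCF. With doxycycline alone, when endogenous CTCF was present, a boundary lay within 40 kb of 19 of the 382 in CTCF D (4.97%, interval 3.21 to 7.64), 30 in CTCFL D (7.85%), 28 in CLC D (7.33%) and 26 in LCL D (6.81%). For 40 kb bins over the genome the corresponding shares were 13.3% to 14%. The bins were not held to the limit of 80 kb from an untreated boundary. A D list that repeats the untreated lists holds few new boundaries by the rule itself, so that shares under those of bins are no separate result. No D list held a boundary near 324 of the new boundaries, 28 were near one in 1 D list, 19 in 2, 7 in 3 and 4 in all 4. The description "only after depletion" therefore held for the untreated lists by construction and for most, but not all, of the new boundaries in the D lists.

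With IAA and doxycycline together, the number found differed between the transgenes. CTCFL ID had a boundary within 40 kb of 234 new boundaries (61.3%, 56.3 to 66.0), CLC ID of 250 (65.4%, 60.5 to 70.0) and LCL ID of 212 (55.5%, 50.5 to 60.4). In CTCF ID, where CTCF itself was given back, 82 were found (21.5%, 17.6 to 25.9), against 13.3% of bins, which again were not held to the limit of the rule. The counting intervals of CTCF ID and of the other 3 lists did not overlap. Both CTCF ID and CTCFL ID held 56 of the new boundaries, 178 were in CTCFL ID and not in CTCF ID, and 26 were in CTCF ID and not in CTCFL ID. CTCFL ID, CLC ID and LCL ID shared 154, and 101 of these were in neither CTCF ID nor a D list. At the other end, 67 were in no ID list and 65 in none of the 8 lists.

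Lost boundaries, chosen in the opposite way, were found most often in CTCF ID among the ID lists. They were found again in 71.9% of cases there, 12.3% in CTCFL ID, 17.5% in CLC ID and 20.4% in LCL ID, and in 83.9% to 94.0% in the D lists. Kept boundaries were found in 89.3% to 95.9% of cases in all 8 lists.

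**Figure D1:**
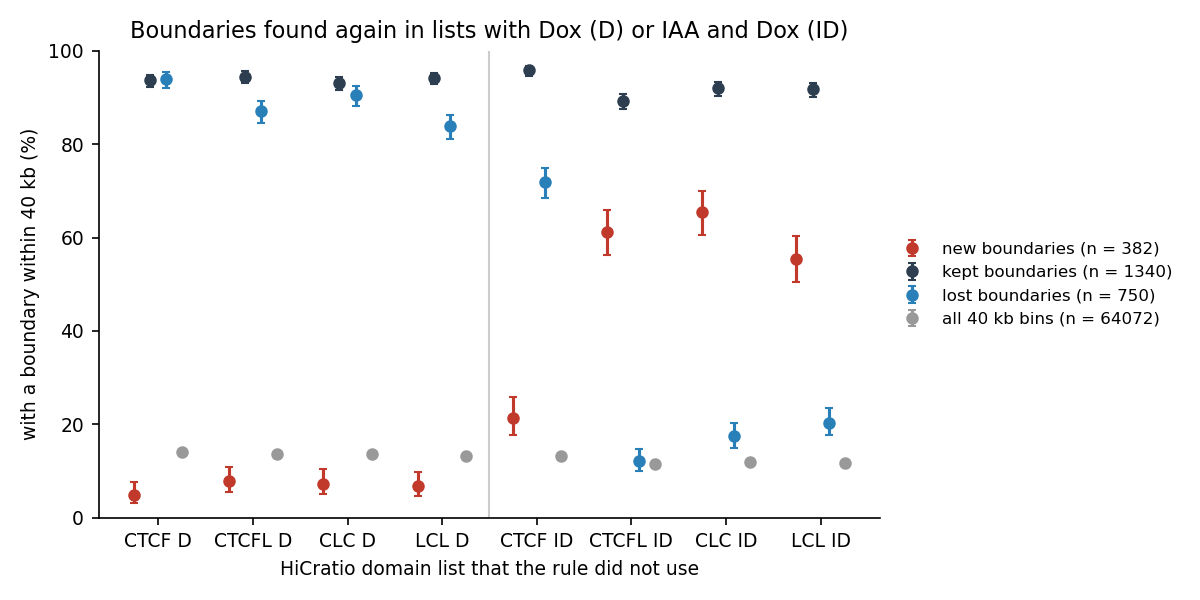
Share of boundaries (y axis, %) with a HiCratio boundary within 40 kb in each of the 8 lists the rule did not use (x axis), for new, kept and lost boundaries and all 40 kb bins. Points are shares and bars are 95% Wilson intervals for counting error, and the new boundaries sit at 4.97% to 7.85% in the D lists, 21.5% in CTCF ID and 55.5% to 65.4% in the other ID lists.

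The other domain caller gave lower shares. The Crane insulation lists, with the middle of gaps of up to 280 kb as boundaries, held a boundary within 40 kb of 15.2% of the new boundaries in CTCF U and 13.1% in CTCFL U, against 15.1% and 14.9% of bins. In CTCF I the share was 38.5% and in CTCFL I 35.6%, against 13.9% and 14% of bins. The ID lists gave 19.4% for CTCF, 30.9% for CTCFL, 33.2% for CLC and 32.5% for LCL, and the D lists 15.2% to 18.8%. CTCF ID thus again had the lowest share of the ID lists, but a majority of the new boundaries had no Crane boundary nearby even in CTCF I. Kept boundaries were also matched in only 51.5% of cases in the Crane list of CTCF I.

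All 382 new boundaries lay inside a CTCF U domain, as the rule requires. That domain had a median size of 800 kb, where the median over all CTCF U domains was 600 kb and the domain around a 40 kb bin had a median of 960 kb. The rule bars places within 80 kb of an untreated boundary, which by construction raises the share in the middle of the domain. The middle 50% of the domain's length held 227 of the new boundaries (59.4%). Their median distance to the nearest untreated boundary was 200 kb, with a range of 120 kb to 2040 kb. For 326 (85.3%) the nearest CTCF U boundary had no CTCF I boundary within 40 kb, and 44.3% of all 3065 CTCF U boundaries had none. Both values come from lists that chose the members and are given as a description only. This share was 95.5% (191 of 200) for new boundaries within 200 kb of an untreated boundary and 74.2% (135 of 182) for those farther away. Only 2.23% of neighbouring boundaries in CTCF U and 3.76% in CTCF I were up to 200 kb apart, so that a new boundary and a kept one seldom lay that close together in 1 list.

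Boundaries on either side of the thresholds are described without a test. Of 80 new boundaries just inside the distance limit, at 120 kb from an untreated boundary, 22.5% were found in CTCF ID, 63.7% in CTCFL ID and 5% in CTCF D. Of 109 boundaries just outside it, at 80 kb, 29.4%, 72.5% and 14.7% were. For the match between the lines, 105 new boundaries lay 1 bin from the CTCFL I boundary and 58.1% of these were in CTCFL ID, against 62.5% of the 277 in the same bin and 38.5% of the 26 left out at 80 kb.

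New boundaries were spread over all 19 autosomes and the X chromosome. Chromosome 1 held 39 and chromosome 2 held 37. As a share of the CTCF I boundaries, they ranged from 9.17% on chromosome 8 to 21.0% on chromosome 2.

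Most new boundaries of the HiCratio lists lay near expressed genes. This depended on the caller, because under the same rule the Crane lists gave 42.9%, and 54.1% with gaps of up to 280 kb. Within 40 kb, 281 of 382 (73.6%, 68.9 to 77.7) had the start site of an expressed gene, defined as a mean of at least 10 normalized counts in U of the CTCF and CTCFL lines. The share was 67.8% (65.3 to 70.3) at kept boundaries, 56.9% (53.4 to 60.4) at lost boundaries and 38.1% of 40 kb bins. The intervals of new and kept boundaries overlapped, and those of new and lost boundaries did not. With any annotated start site the shares were closer, at 88.5%, 88.2%, 84.0% and 72.6%. A new boundary had on average 9.87 annotated start positions, 3.29 genes and 1.70 expressed genes in its 80 kb window, against 6.01, 2.40 and 1.05 at lost boundaries and 4.07, 1.86 and 0.646 in bins. The median distance to the start of an expressed gene was 12.1 kb, against 15.6 kb at kept boundaries, 28.6 kb at lost boundaries and 81.9 kb for bins.

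Start sites of expressed genes peaked at the boundary itself. The 40 kb bin of a new boundary held 3.71 such start positions on average, with 3.64 and 3.24 in the bins to its left and right and 1.95 and 1.67 at 400 kb on each side. Kept boundaries had 3.49 in their own bin and lost boundaries 2.16. The base composition was much the same in each group, with a median GC content of 42.7% at new, 43.2% at kept and 42.8% at lost boundaries and 41.2% in bins. The boundary fell inside an annotated gene for 59.7% of new, 51.3% of kept and 45.2% of lost boundaries. Expressed genes at new boundaries had a median level of 177 normalized counts per kb of merged exons in untreated cells (n = 648), compared with 164 at kept boundaries, 88.5 at lost boundaries and 111 over all 15985 expressed genes.

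**Figure D2:**
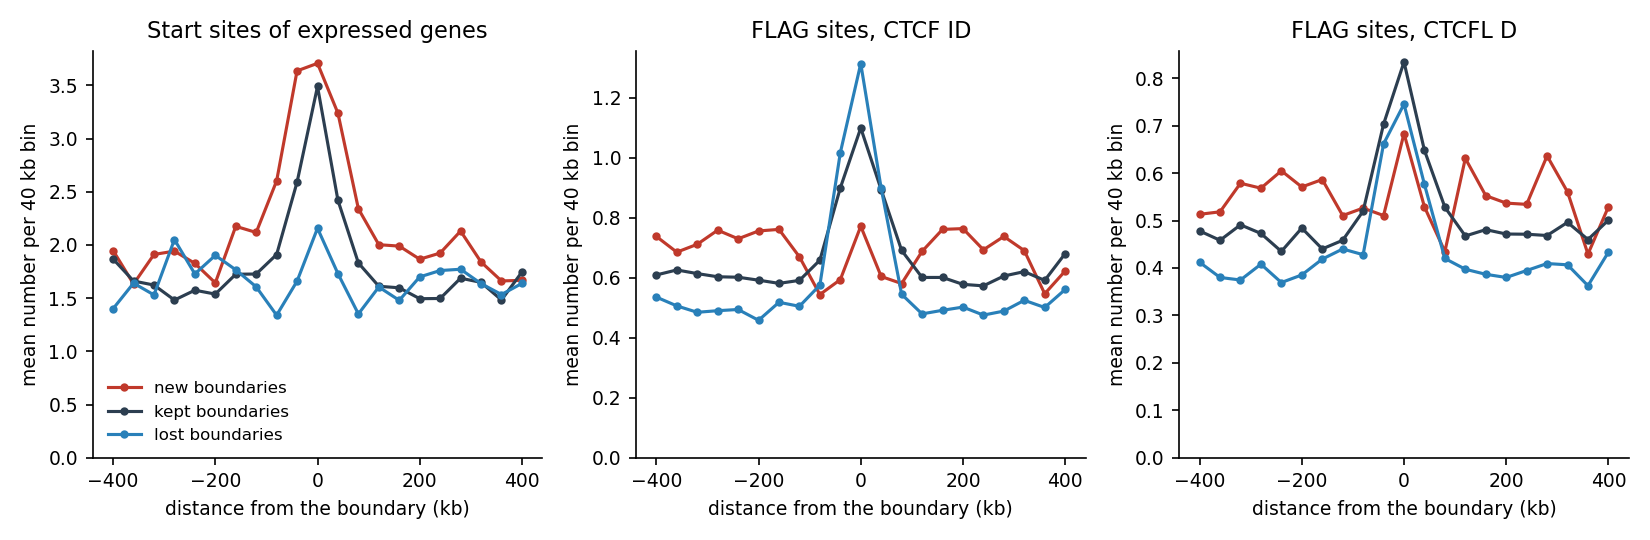
Mean number per 40 kb bin (y axes) of start positions of expressed genes, CTCF ID FLAG sites and CTCFL D FLAG sites against distance from new, kept and lost boundaries (x axes, kb). Lines join the means of the bins, and at distance 0 new boundaries have 3.71 start positions, 0.772 CTCF ID sites and 0.683 CTCFL D sites, where lost boundaries have 2.16, 1.31 and 0.745.

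The boundaries richest in start sites were at dense clusters of genes. The one at chr7:44840001-44880000 had 85 start positions and 9 genes, among them Med25, a Mediator subunit, and Akt1s1, which encodes an inhibitor of mTORC1. The one at chr9:108520001-108560000 had 73 start positions and 14 genes, among them Impdh2, an enzyme of guanine nucleotide synthesis, and Qars, the glutaminyl-tRNA synthetase, and was found in all 4 ID lists and in 1 D list. The third, at chr7:3640001-3680000, had 58 start positions and 10 genes, including Cnot3 of the CCR4-NOT deadenylase and the splicing factor gene Prpf31. At the other extreme were the 3 new boundaries farthest from any untreated boundary. The one at chr3:148960001-149000000, at 2040 kb, lay in Adgrl2, which encodes an adhesion G protein-coupled receptor. Those at chr8:98840001-98880000 (1960 kb) and chr16:53000001-53040000 (1800 kb) had no expressed gene and no CTCF ID or CTCFL D site within 40 kb.

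By gene class, 1257 of 53843 annotated genes (2.33%) had a start site within 40 kb of a new boundary, and 3.25% of protein-coding genes did. Hox genes, which set positional identity along the body axis, were represented by 6 of 39 members at new boundaries, 17 at kept and 0 at lost ones, and the 6 lay in the Hoxc cluster. Of 69 protocadherin genes, which encode neuronal adhesion proteins, 12 were at new boundaries. Ribosomal protein genes gave 5 of 83, zinc finger (Zfp) genes 4 of 394, olfactory receptor genes 11 of 1135 and vomeronasal receptor genes 4 of 331. Histone and keratin genes gave 0 of 67 and 0 of 53. Members of a cluster share 1 boundary, so that these counts are not independent.

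FLAG sites of CTCF were fewer at new boundaries than at kept or lost ones. A CTCF ID site, called by the authors in both replicates, lay within 40 kb of 246 of 382 new boundaries (64.4%, 59.5 to 69.0), against 73.4% (70.9 to 75.7) at kept boundaries, 88.0% (85.5 to 90.1) at lost boundaries and 45.4% of bins. The intervals of the 3 sets did not overlap. For CTCF D the shares were 70.4%, 77.2%, 90.7% and 50.4%. The mean number of CTCF ID sites in the boundary's own bin was 0.772 at new, 1.10 at kept and 1.31 at lost boundaries. In the bins 80 kb to the left and right of a new boundary it was 0.545 and 0.581, and at 200 kb 0.757 and 0.764.

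CTCFL D sites differed less between the sets. A CTCFL D site lay within 40 kb of 224 new boundaries (58.6%, 53.6 to 63.5), 64.8% of kept and 64.8% of lost boundaries and 36.1% of bins, and the interval of new boundaries overlapped those of both other sets. CTCFL ID sites were found at 57.3% of new (52.3 to 62.2), 65.4% of kept (62.8 to 67.9) and 69.9% of lost boundaries (66.5 to 73.0) and 38.5% of bins, and here the interval of new boundaries did not overlap the others. Among new boundaries, 60.7% of the 234 found in CTCFL ID and 55.4% of the 148 not found there had a CTCFL D site, and 68.3% of the 82 found in CTCF ID and 63.3% of the 300 not found there had a CTCF ID site. The 101 found in CTCFL ID, CLC ID and LCL ID but in neither CTCF ID nor a D list were also examined. They had a CTCFL D site in 63.4% of cases and an expressed gene in 79.2%, compared with 56.9% and 71.5% of the other 281.

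RAD21 sites in CTCF D, which mark where cohesin was held in the presence of CTCF, lay within 40 kb of 47 new boundaries (12.3%, 9.38 to 15.98), 21.2% of kept and 30.5% of lost boundaries and 9.58% of bins. Replicate 2 of this group had 3756 peaks and replicate 1 had 22765, and in replicate 1 alone the shares were 50.8%, 63.9% and 78.5%. With peaks of a -log10 q of at least 5 few sites were left, and the shares were 0.785%, 0.970% and 0.667%, without the order seen above. In the other RAD21 groups replicate 2 had 181 to 784 peaks, so that no share is given for them.

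**Figure D3:**
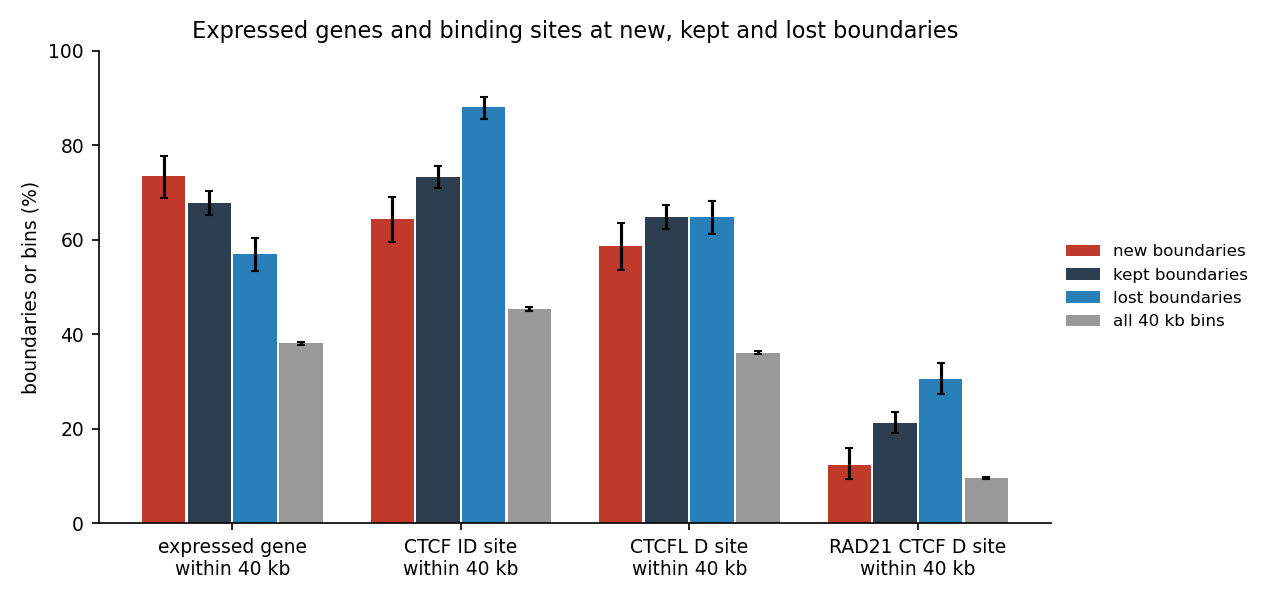
Share (y axis, %) of new, kept and lost boundaries and of all 40 kb bins with an expressed gene or a CTCF ID, CTCFL D or RAD21 CTCF D site within 40 kb (x axis). Bars are shares, whiskers are 95% Wilson intervals for counting error, and the CTCF ID share rises from 64.4% at new to 88.0% at lost boundaries while the share with an expressed gene falls from 73.6% to 56.9%.

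The RNA of genes at new boundaries was compared between untreated and IAA-treated cells, a measure that the rule did not use. Values are counts that the authors divided by a size factor per library, here called normalized counts, and a gene was called when its adjusted p was below 0.01 and its log2 fold change beyond 1 (limma on log2(value + 1), Benjamini-Hochberg over all genes tested). The labels do not say that libraries of 1 group came from separate cultures, so that p-values measure the spread between these libraries, and in bulk RNA fewer cells of a type and less RNA per cell cannot be told apart. The 382 new boundaries had 1253 gene symbols within 40 kb. In the CTCF line (2 U and 3 I libraries), 660 were tested, 15 were higher (background 5% of all tested genes) and 28 lower (5.92%) in I than in U. In the CTCFL line (3 U and 3 I libraries), 15 of 658 were higher (3.69%) and 27 lower (5.88%). In the CLC line, 21 of 606 were higher (6.7%) and 28 lower (6.1%), and in the LCL line 13 of 599 were higher (4.25%) and 23 lower (5.34%), with 2 libraries per condition. As a share of those tested, 6.52% of genes at new boundaries were called in the CTCF line, 6.38% in the CTCFL line, 8.09% in CLC and 6.01% in LCL, against 10.9%, 9.58%, 12.8% and 9.58% of all tested genes. The share called at new boundaries was thus under the background in each of the 4 lines. At kept boundaries it was also under the background, at 8.41%, 7.07%, 10.7% and 7.94%, and at lost boundaries it was 12.9%, 13.6%, 15.3% and 12.5%. The CLC counts rested most on 1 library, and without I replicate 1, 80 of 604 (13.2%) were called against 15.7% of all genes. The shares were not tested against each other, because genes are not replicates. The median log2 fold change at new boundaries was -0.02 in the CTCF line and -0.01 in the CTCFL line, beside 0.03 and 0.04 over all genes tested.

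Genes called with the same sign in both lines numbered 7 higher and 18 lower of 634 tested in both. Over all 16048 genes tested in both lines, 2.09% were called higher and 4.29% lower in both. These genes lay at 24 of the 382 boundaries, and 358 boundaries had none. The exception with 2 was at chr19:46280001-46320000, near Fbxl15 and Psd. Of the 24 boundaries, 18 were present in CTCFL ID, 19 in CLC ID, 16 in LCL ID, 4 in CTCF ID, 2 in CLC D, 1 in LCL D and 0 in either CTCF D or CTCFL D. The 18 genes that fell had a median annotated length of 172 kb, the 7 that rose 12.1 kb and all 634 23.2 kb. A similar split was seen over the genome, with 200 kb for the 684 genes with a length that fell in both lines and 11.4 kb for the 326 that rose. The boundary lay inside the gene for 7 of the 18 that fell, 0 of the 7 that rose and 30.4% of the 634 tested.

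**Figure D4:**
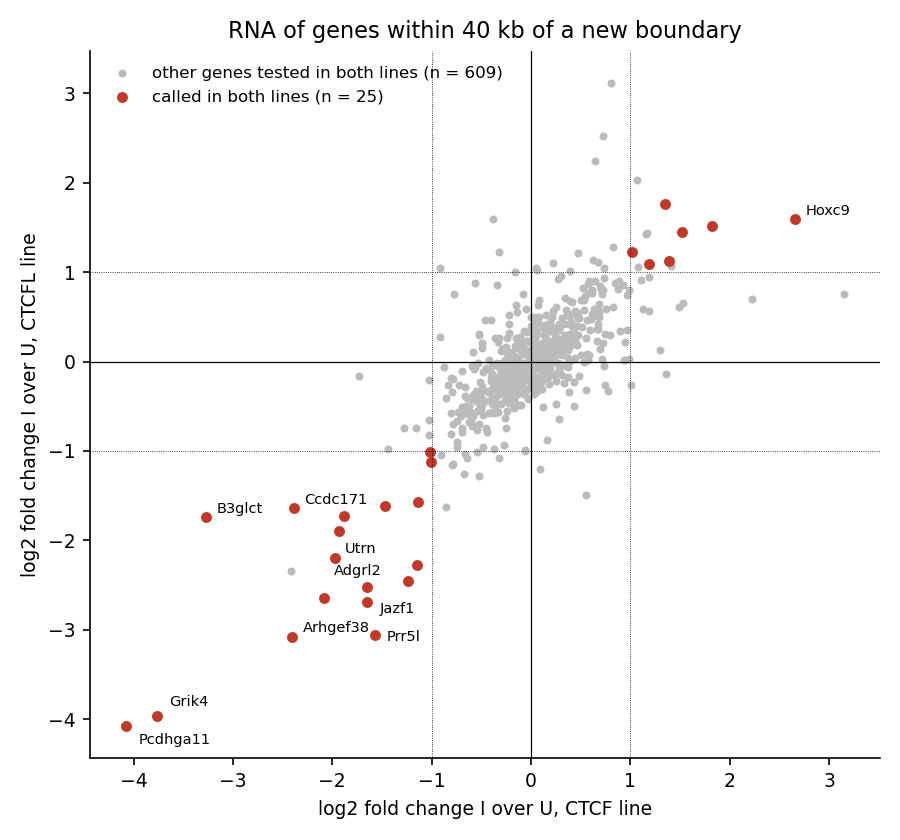
Log2 fold change of I over U in the CTCFL line (y axis) against the CTCF line (x axis) for the 634 genes within 40 kb of a new boundary that were tested in both. Each point is a gene, red points are the 25 called in both lines, and dotted lines mark 1 and -1. Pcdhga11 and Grik4 lie farthest out among those called lower, and Hoxc9 among those called higher.

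Grik4, which encodes a kainate-type glutamate receptor subunit, fell farthest among genes with unambiguous reads. It had 201 and 243 normalized counts in CTCF U and 10.7, 18.2 and 18.4 in CTCF I, and 202, 229 and 262 in CTCFL U against 11.98, 13.99 and 15.4 in CTCFL I. Every I library was below every U library in both lines. The log2 fold change was -3.77 ± 0.28 (SE, adjusted p = 2.67e-07) in the CTCF line and -3.97 ± 0.26 (adjusted p = 6.38e-11) in the CTCFL line. Its start site, on the minus strand, lay 35.5 kb from the boundary at chr9:42960001-43000000, which was in 3 of 4 ID lists, and CTCF ID (-log10 q 64.7), CTCFL D (28.6) and RAD21 CTCF D (3.22) sites overlapped its promoter. In CTCF ID the values were 13.6, 19.95 and 24.1, which did not pass the test against CTCF I (log2 fold change 0.27 ± 0.25, adjusted p = 0.415). In CTCFL ID they were 38.2 and 44.2, a rise of 1.52 ± 0.29 on the log2 scale (adjusted p = 0.000206). These remained under the lowest CTCFL U value.

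B3glct, a glucosyltransferase that extends O-linked fucose on thrombospondin repeats, had 652 and 690 normalized counts in CTCF U and 61.0, 63.7 and 82.9 in CTCF I. In the CTCFL line it had 173, 217 and 233 in U and 56.0, 60.9 and 66.1 in I. The groups did not overlap in either line, and the U level itself differed between the clones. The log2 fold change was -3.27 ± 0.15 (adjusted p = 4.55e-09) and -1.74 ± 0.19 (adjusted p = 2.09e-07). In ID it rose in the CTCF line to 178, 186 and 217 (1.48 ± 0.13 against I, adjusted p = 2.76e-06) and in the CTCFL line to 387 and 418 (2.71 ± 0.21, adjusted p = 2.68e-09), above the 3 CTCFL U libraries. Its promoter carried a CTCF ID site (-log10 q 56.6) and a CTCFL D site (28.3). Because both proteins were found there, the 250 bases before its start site are given from the RefSeq table (GRCm38.p6), at chr5:149677980-149678229 on the plus strand. They held no exact match to the core letters, which were found in 2.07% of 32851 promoters of this length. A stretch near their end differed from the core letters only at the A of CCA, and only exact matches were counted.
B3glct promoter: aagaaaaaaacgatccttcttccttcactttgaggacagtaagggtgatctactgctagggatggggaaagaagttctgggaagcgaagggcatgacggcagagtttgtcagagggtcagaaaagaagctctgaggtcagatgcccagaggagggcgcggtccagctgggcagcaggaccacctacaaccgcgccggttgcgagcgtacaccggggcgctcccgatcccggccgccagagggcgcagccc

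Utrn, the autosomal relative of dystrophin that links the cytoskeleton to the membrane, was the most abundant of the genes that fell. It had 3116 and 3539 normalized counts in CTCF U and 764, 827 and 951 in CTCF I, with 2401, 2659 and 3436 against 548, 636 and 655 in the CTCFL line. The groups were apart by more than their spread, at -1.98 ± 0.11 (adjusted p = 2.11e-08) and -2.19 ± 0.11 (adjusted p = 2.18e-12). The boundary, at chr10:12400001-12440000, lay inside the gene, near an annotated start site at position 12403075 and far from the 5' end at 12869365. No CTCF ID or CTCFL D site was found within 40 kb of it. In CTCF ID the values were 357, 397 and 432, lower again than in CTCF I (-1.10 ± 0.10, adjusted p = 2.76e-06), and in CTCFL ID 373 and 472 (-0.54 ± 0.13 against I, within the fold limit).

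Adgrl2 had 317 and 404 normalized counts in CTCF U and 92.0, 111 and 141 in CTCF I, and 331, 380 and 430 against 61.5, 62.5 and 70.9 in the CTCFL line. The groups did not overlap, at -1.65 ± 0.20 (adjusted p = 1.84e-05) and -2.53 ± 0.20 (adjusted p = 1.77e-09). Its boundary, at 2040 kb the farthest from an untreated one, was in none of the ID lists. Dock2, a Rac activator of blood cells, fell from 68.1 and 68.5 to 14.8, 15.9 and 21.3 in the CTCF line and from 45.8, 53.4 and 76.6 to 8.15, 15.9 and 23.9 in the CTCFL line. Its boundary lay inside the gene and was in 3 ID lists.

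The other named genes that fell were lower in abundance or less stable between settings. Ccdc171 had 93.6 and 115 normalized counts in CTCF U and 15.1 to 25.2 in CTCF I. Prr5l, whose product binds mTORC2, had 41.5 and 51.9 against 12.6 to 19.4. Arhgef38, a guanine nucleotide exchange factor gene, had 40.9 and 52.1 against 3.87 to 17.6, and Bcl2, the inhibitor of apoptosis, 26.6 and 36.5 against 7.54 to 7.95. Jazf1, a zinc finger cofactor, had 25.5 and 27.6 against 5.87 to 11.6. None of these overlapped between U and I in either line. Pcdhga11 had 39.4 and 72.9 in CTCF U and 1.68 to 2.90 in CTCF I (log2 fold change -4.07 ± 0.46, adjusted p = 1.05e-05), but genes of the Pcdhg cluster share exons, so that reads may be split among them and its value is uncertain. The remaining 6 that fell in both lines were Msh3, a mismatch repair gene, Ndufaf3, an assembly factor of respiratory complex I, Inpp5e, a phosphatase of the primary cilium, and Abtb2, Asap1 and Spata5, with log2 fold changes of -1.01 to -1.47 in the CTCF line. CTCF ID sites lay over the promoters of Msh3, Inpp5e and Ndufaf3, with -log10 q values of 80.2, 105 and 112. The libraries kept the strand by the study's methods, but whether counting used it is not given in the sources used here, so that overlapping genes on opposite strands cannot be told apart.

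Hoxc9 rose most in the CTCF line among the 7 genes that were higher in both lines, and in the CTCFL line Capn12 rose more (log2 fold change 1.77). It had 6.38 and 8.84 normalized counts in CTCF U and 40.7, 53.4 and 67.9 in CTCF I, and 19.8, 29.03 and 29.6 against 74.2, 77.4 and 87.8 in the CTCFL line. The groups did not overlap. The log2 fold changes were 2.66 ± 0.34 (adjusted p = 3.63e-05) and 1.59 ± 0.42 (adjusted p = 0.00424). The boundary at chr15:102920001-102960000 lay in the Hoxc cluster 36.4 kb from its start, had 12 genes within 40 kb, and was found in 1 ID list, CLC ID. In CTCF ID Hoxc9 was at 26.5, 39.4 and 51.6, which did not pass the test against I (-0.47 ± 0.31, adjusted p = 0.243).

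Fbxl15, a substrate receptor of an SCF ubiquitin ligase, and Psd, an activator of the small GTPase ARF6, shared the boundary at chr19:46280001-46320000, which had 6 CTCF ID and 4 CTCFL D sites within 40 kb and was in 3 ID lists. Fbxl15 rose from 38.7 and 62.7 to 140, 178 and 222 in the CTCF line (1.82 ± 0.23, adjusted p = 3.51e-05) and from 54.4, 59.2 and 60.6 to 152, 170 and 181 in the CTCFL line (1.51 ± 0.24, adjusted p = 2.52e-05). Psd rose from 19.1 and 29.8 to 57.9, 63.7 and 71.6 in the CTCF line (1.39 ± 0.27, adjusted p = 0.000853) and by 1.12 ± 0.31 in the CTCFL line (adjusted p = 0.00527). Neither gene's U and I libraries overlapped. Psd did not pass the test in CLC (0.61 ± 0.38) or LCL (0.12 ± 0.48).

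Sh3d21 rose from 68.5 and 74.4 to 181, 213 and 227 in the CTCF line and Capn12, a calpain protease gene, from 88.4 and 131 to 252, 274 and 305. Capn3, the muscle calpain, had 47.9 and 50.8 in CTCF U and 82.9, 108 and 114 in CTCF I. S100a13, a calcium-binding protein gene, had 521 and 699 in CTCF U and 913, 1624 and 1775 in CTCF I, and 1254, 1337 and 1399 against 2261, 2788 and 3564 in the CTCFL line. All 4 were called in both lines with no overlap, and log2 fold changes of 1.02 to 1.52 in the CTCF line. Capn3 lost its call in 8 of the alternatives in the CTCF line and 5 in the CTCFL line, and S100a13 in 4 and 1. CTCFL D and CTCFL ID sites lay on the S100a13 promoter (-log10 q 9.87 and 9.31), and no CTCF ID site did. In the CLC and LCL lines, 11 and 12 of the 16 genes tested that fell in both lines were called lower, and 5 and 4 of the 7 that rose were called higher, and 11 and 3 were called in all 4 lines.

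**Figure D5:**
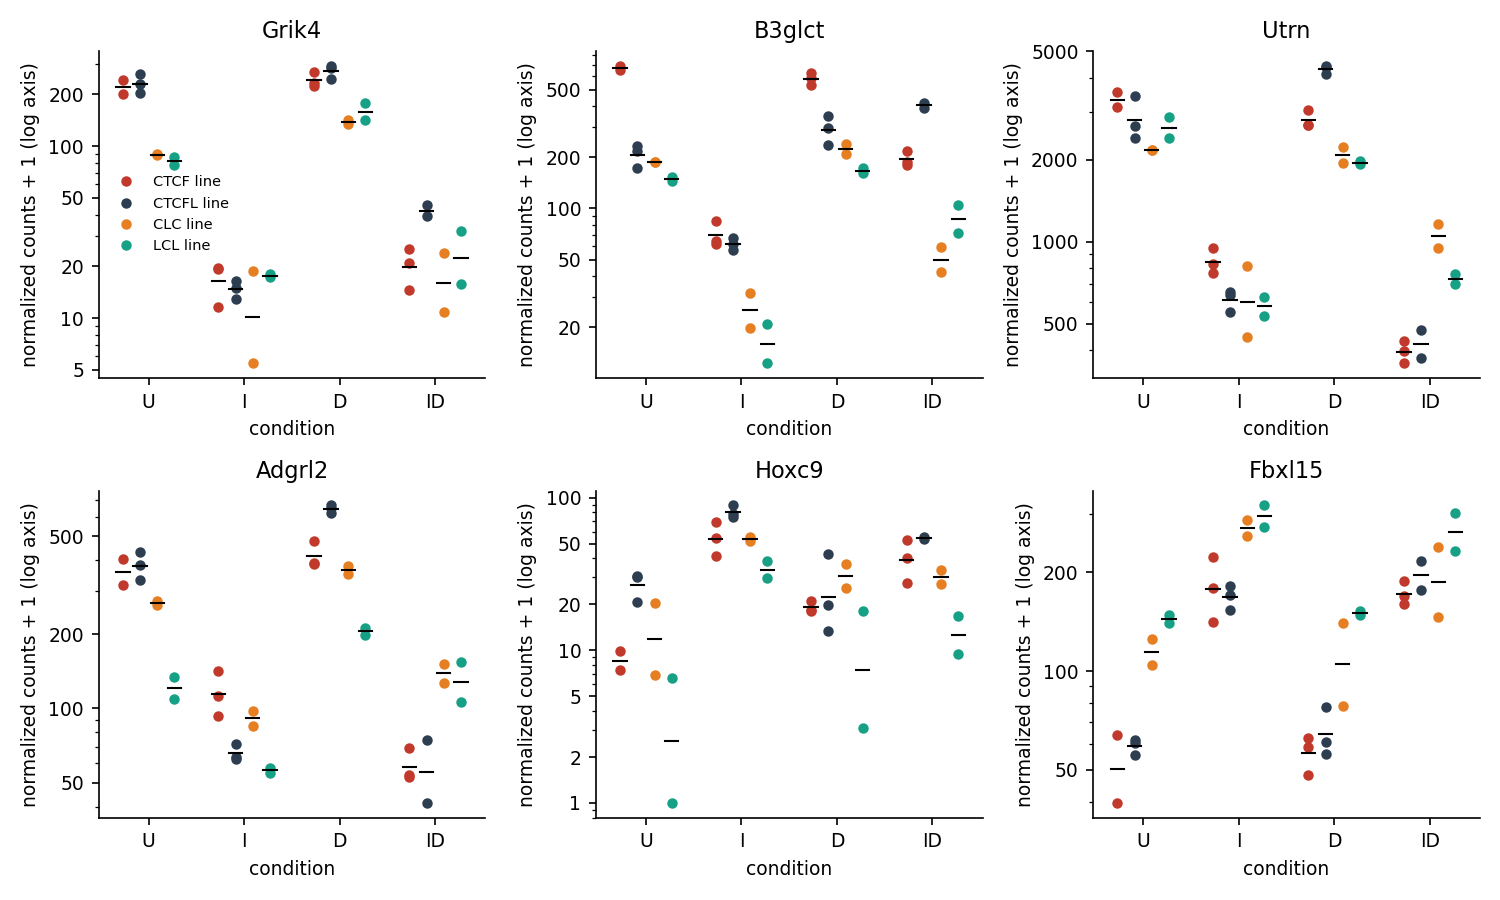
Normalized counts + 1 (y axes, log scale) of Grik4, B3glct, Utrn, Adgrl2, Hoxc9 and Fbxl15 in each RNA-seq library of the CTCF, CTCFL, CLC and LCL lines, by condition (x axes). Points are libraries and black bars are geometric means, and in the CTCF and CTCFL lines no I library overlaps the U libraries of its line.

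Genes at new boundaries were also compared between depleted cells without and with the transgene. Against I, in CTCF ID 12 of 660 were higher (1.76% of all tested genes) and 12 lower (3.3%). In CTCFL ID 23 of 658 were higher (3.94%) and 15 lower (3.89%). In LCL ID 21 of 599 were higher (4.04%) and 24 lower (4.45%), and in CLC ID 2 of 606 were higher (1.15%) and 1 lower (0.795%). Without I replicate 1 the CLC count was 21 of 604 (3.48%, against 4.16% of all genes), where it was 3 with all libraries. These comparisons share the I libraries with those of U against I. Of the 18 genes that fell in both lines on IAA, 3 rose in CTCF ID against I (B3glct, Pcdhga11 and Inpp5e) and 3 fell further (Utrn, Dock2 and Abtb2). In CTCFL ID 5 rose (B3glct, Grik4, Ndufaf3, Abtb2 and Inpp5e) and 0 fell. In LCL ID 7 of the 16 tested rose (B3glct, Pcdhga11, Adgrl2, Prr5l, Msh3, Ndufaf3 and Inpp5e) and 0 fell, and in CLC ID Ndufaf3 and Inpp5e rose and 0 fell. Of the 7 that rose on IAA, 0 were called in CTCF ID or CLC ID. Capn12 and Capn3 fell in CTCFL ID and in LCL ID, where S100a13 rose further. Differences between the transgenes were not tested.

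Ctcf RNA was not lower in I by the thresholds used (log2 fold change -0.09 ± 0.07 in the CTCF line and -0.06 ± 0.07 in the CTCFL line). This does not check the labels, because the degron acts on the protein. In CTCF ID, Ctcf RNA was 3910, 4137 and 4142 normalized counts, against 4231, 4371 and 4622 in CTCF I. The change was -0.12 ± 0.06 (limma adjusted p = 0.15), so expression of the CTCF transgene cannot be seen in these values. Ctcfl RNA was at 177, 203 and 221 normalized counts in CTCFL I and rose to 5455 and 5572 in CTCFL ID. Among 18 cohesin and loop factor genes, 0 were called higher on IAA in any line, 0 were lower in the CTCF line and Hdac8, the SMC3 deacetylase, was lower in the CTCFL line (-1.58 ± 0.26, adjusted p = 4.73e-05). In CLC 1 gene of the list was called lower (Pds5a) and in LCL 2 (Hdac8 and Top2b). The median log2 fold change of the 18 was -0.28 in CTCF, -0.32 in CTCFL, -0.55 in CLC and -0.30 in LCL. Over all tested genes it was 0.03, 0.04, 0.005 and 0.01, so that the list was lower mostly within the fold limit. The summed level of 8 embryonic stem cell markers was 147981 to 150340 in CTCF U and 111167 to 112214 in CTCF I, and 129478 to 137592 and 98468 to 104210 in the CTCFL line, with 2 of 8 called lower in the CTCF line and 0 in the others. The sum of 16 markers of other cells was 7029 to 7319 in CTCF U and 7718 to 8435 in CTCF I, with 4 of 13 tested called higher and 1 lower, and 6781 to 7078 against 7992 to 8337 in the CTCFL line, with 3 of 13 higher. In CLC 2 of 9 were called higher and 1 lower, and in LCL 1 of 10 was higher. Dcn, a fibroblast marker, was at 0 in both U groups and in CTCFL I. The part of these shifts in the RNA values at new boundaries was not tested.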

How the data were processed

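The data were Hi-C domain lists, ChIP-seq peak lists and an RNA-seq table as deposited. The members and gene lists were chosen with earlier results of these data known. Hi-C reads were processed by the authors with HiC-Bench (bowtie2, GRCm38/mm10, ICE), and domains were called in 40 kb bins with HiCratio at 5% FDR and with Crane insulation. There were 12 HiCratio lists, 1 per condition, and whether replicates were pooled is not given in the sources used here. The domain lists hold no read depth for Hi-C. The study gives total reads as a range with the share accepted, and its supplement lists read filter statistics by transgene and condition. These were not used here, and the part of depth in the boundary calls was not tested. FLAG and RAD21 peaks were called by the authors with MACS in each of 2 replicates, with heights deposited as -log10 q, and a site here was a stretch, after merging, that held peaks of both replicates. RNA values are a signal that the authors made by dividing counts per gene by a size factor. Whole reads could be recovered for 36 of 38 libraries, with 100% of the values of up to 500 reads being whole within a tolerance of 0.1 of a read, giving 6847072 to 49716771 reads each over 52459 genes. No column of the files was left unused (0). The submitters' notes name Bowtie2, HTSeq, SAMtools 1.3 and Trim Galore 0.4.4.

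Shares were computed in Python 3.11.15 (numpy 2.4.6, pandas 2.3.3, scipy 1.17.1, pysam 0.24.0, matplotlib 3.10.9), with GENCODE vM21 genes (130588 start positions), leaving out bins over 50% N. RNA was tested with limma 3.58.1 in R 4.3.3 on log2(value + 1), 1 fit per line over U, I, D and ID, for genes with a mean of at least 10. Fold changes are on that scale, which understates those of low genes. Genes named were those called with the same sign in the CTCF and CTCFL lines, up to 12 that fell and 12 that rose, ordered by the smaller change, and the other 6 that fell were added after their values were seen. The values of 1 gene under this rule are not reported here. Boundaries named had the most start sites, the most called genes, the strongest sites or the largest distance to an untreated boundary. Whether the effect of IAA differed between the CTCF and CTCFL lines was tested with an interaction contrast. Alternatives were other distances, edges, callers, replicates and site limits, a pseudocount of 5, other filters on low values, TMM scaling, the replicate number as a block, leaving out each library, and edgeR 4.0.16 and DESeq2 1.42.0 on recovered reads. The steps were tested on simulated data.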

Additional observations from a re-analysis of the deposited data

Results flagged for a closer look

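The change on IAA differed between the CTCF and the CTCFL line, by the interaction contrast, for 3 of the 660 genes tested at new boundaries (0.455%), against 61 of all 16867 genes tested (0.362%). B3glct fell by 3.27 on the log2 scale in the CTCF line and by 1.74 in the CTCFL line, a difference of -1.53 ± 0.24 (SE, limma adjusted p = 0.000476), and its level in U was 652 to 690 in the first line and 173 to 233 in the second. Il4i1, an amino acid oxidase gene at the boundary at chr7:44840001-44880000, had 164 to 202 normalized counts in CTCF U and 46.6 to 63.7 in CTCF I, and 187 to 248 in CTCFL U and 176 to 198 in CTCFL I, a difference of -1.57 ± 0.24 (adjusted p = 0.00038). In the CLC and LCL lines its log2 change was -0.41 ± 0.13 and -0.46 ± 0.20. Snhg20, a small nucleolar RNA host gene, had 134 to 161 in CTCF U and 123 to 143 in CTCF I, and 109 to 142 and 233 to 256 in the CTCFL line, a difference of -1.16 ± 0.24 (adjusted p = 0.00676), with changes of -0.21 ± 0.28 in CLC and -0.56 ± 0.28 in LCL. Il4i1 and Snhg20 were chosen after their values were seen.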

How the results depend on the processing

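Among the alternative values for the main results, 122 stayed within the limits set and 31 moved. For the genes named by the rule, with Ctcf and Ctcfl, 466 values kept their status as called or not called, and none reversed. The other 87 fell below the thresholds, among them values of Jazf1, Capn3, S100a13, Hoxc9, Psd, Bcl2 and Arhgef38. Genes that fell and were added after their values were seen are not in these counts. The number of new boundaries rose from 382 to 703 with both edges of each gap and to 704 with the Crane lists. With the Crane lists a CTCF ID site, a CTCFL D site and an expressed gene were near 48.4%, 40.8% and 42.9%. These shares were close to those of all 40 kb bins, at 45.4%, 36.1% and 38.1%. With Crane gaps of up to 280 kb, chosen after seeing the data, there were 508 new boundaries, with 52.4% in CTCFL ID. Of these, 53.3%, 47.8% and 54.1% were near a CTCF ID site, a CTCFL D site and an expressed gene. Replicate 1 alone gave 70.9% for CTCF ID and 73.8% for CTCFL D sites, a -log10 q of at least 5 gave 50.5% for CTCFL D, and a distance of 20 kb gave 47.4%, 41.1% and 61.8% for CTCF ID sites, CTCFL D sites and expressed genes. Genes called for U against I within 20 and 80 kb numbered 24 and 85 in the CTCF line, 26 and 74 in CTCFL, 27 and 94 in CLC and 19 and 71 in LCL. Leaving out each library gave 25 to 45 in the CTCF line (25 without U replicate 2), 28 to 37 in CTCFL, 27 to 80 in CLC (80 without I replicate 1, 28 and 27 without U replicate 1 and 2) and 32 to 40 in LCL, and for I against ID 15 to 25 in CTCF (15 without I replicate 1), 28 to 35 in CTCFL, 1 to 21 in CLC (21 without I replicate 1, 1 without ID replicate 2) and 35 to 45 in LCL, where the CLC and LCL values were added after seeing the data. In all 63 fits for U against I, and in 38 of 39 for I against ID, the share called at new boundaries was under that of all genes. The exception was LCL ID with no filter on low values (4.37% against 3.85%). Same-numbered libraries did not deviate together (correlations of -0.305 to 0.0102), so the numbers do not pair them, and the replicate block gave 35, 42, 42 and 36 calls in CTCF, CTCFL, CLC and LCL and 21, 35, 1 and 46 for I against ID. On recovered reads, edgeR and DESeq2 called 41 and 43, 37 and 43, 45 and 55, and 37 and 39. The cause of the moves was not tested, and the 40 kb bins limit positions to that width.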
